A study of Mus musculus with 7 samples.

Results

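Genes that encode cathepsins, other lysosomal hydrolases, their cofactors and lysosomal membrane proteins were examined in inflamed and control mouse hearts. They were taken from a list of 33 symbols, all of which had a row, and made up 33 of 23420 gene rows. They fall into 14 proteases, 11 hydrolases of sugars, lipids and phosphates, 3 soluble cofactors and 5 membrane proteins. Bulk RNA sequencing had been carried out on 7 libraries of ventricle from untreated mice aged 3 to 6 weeks, although the tissue label names the whole heart. The 4 control libraries were labelled Ctla4+/+;Pdcd1-/- and the 3 ICI-myocarditis libraries Ctla4+/-;Pdcd1-/-, so all were labelled as lacking Pdcd1 and the groups differed by 1 copy of Ctla4. ICI stands for immune checkpoint inhibitor, a class of drugs that block receptors such as CTLA-4 and PD-1. No such drug was given here, and the disease of these animals is modelled by germline alleles alone. The labels do not say whether each library came from a separate animal, so p-values measure the spread between these libraries.

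Lysosomes are acidic vesicles in which hydrolases take apart proteins, glycans and lipids delivered by endocytosis, phagocytosis and autophagy. Most soluble enzymes reach them through mannose 6-phosphate receptors and are activated by proteolysis in the acidic lumen, where subunits of the vacuolar ATPase pump protons and cystatins outside hold escaped cysteine cathepsins in check. Heart muscle uses lysosomes for the turnover of organelles, while macrophages and antigen-presenting cells carry especially rich and partly distinct sets of cathepsins.

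Libraries held 20931730 to 39037176 reads assigned to genes. On the first principal component of all tested genes, which held 68.6% of the variance, control 2 scored 2.3 while the other controls lay between -96.7 and -61.2 and the ICI-myocarditis libraries between 58.9 and 105. ICI-myocarditis 3 was the library with the score of 105. Results are therefore also given without these libraries where that ends or makes a call or moves a fold change by over 1.5 times. Normalized counts (gene reads divided by a size factor of the library) of Ctla4 rose from 63.3 ± 37.4 (SD, n = 4) to 302 ± 63.4 (SD, n = 3), with an adjusted p of 0.00849 by limma, and Pdcd1 reads were present in every library (2.50 to 244 in controls, 1096 to 1481 in ICI-myocarditis), so neither gene checked the genotype labels. All 8 cardiomyocyte markers were expressed, with a summed level of 1484100 to 3367900 normalized counts in controls and 822870 to 1615800 in ICI-myocarditis. In whole tissue, fewer cells of a type and less RNA per cell cannot be told apart.

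Of the 33 genes, all of which passed the filter on low values, 16 rose in the inflamed hearts, with the largest fold changes in Acp5 and Ctss, 1 fell and 16 did not pass the test (limma, adjusted p under 0.05 over 15258 genes). The 16 that rose were 48.5% of the members, beside 11.7% of all genes tested, and the single fall is to be read beside 4.0% (15.7% in either direction). The median log2 fold change (ICI-myocarditis over control, on log2(normalized count + 1)) was 0.82 for the members and -0.02 for all genes tested. Levels in the 2 groups were fully apart with higher values in ICI-myocarditis for 21 members, beside 17.3% of all genes. They were apart with lower values for 1 member, beside 11.3%, and overlapped for the other 11, where 28.6% of all genes were apart in either direction. The fitted rise exceeded 2-fold for 13 of the 16 called genes and 4-fold for 5 of them, namely Acp5, Ctss, Ctse, Laptm5 and Ctsz.

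By role, 6 of 14 proteases rose and 1 fell (median log2 fold change 1.07), 7 of 11 other hydrolases rose (0.83), 2 of 3 soluble cofactors rose (1.61), and 1 of 5 membrane proteins rose (0.50). The authors' deposited table called 17 members higher and 1 lower, beside 12.9% of its genes higher and 20.2% called in either direction. The gene that the authors' deposited table added was Ctsb, with an adjusted p of 0.0492. Without ICI-myocarditis 3, limma called 10 members higher and none lower, beside 829 of 15046 genes higher. With both control 2 and ICI-myocarditis 3 left out it called 14 members higher and 1 lower, beside 1490 of 14726 genes higher. Of the 16 genes, 10 passed the threshold under all 19 alternative analyses: Ctsc, Ctss, Ctsz, Lgmn, Gusb, Man2b1, Acp5, Grn, Npc2 and Laptm5. Of the 16, ICI-myocarditis 3 held the highest value of its group for 14, and control 2 held the highest control value for 10.

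**Figure D1:**
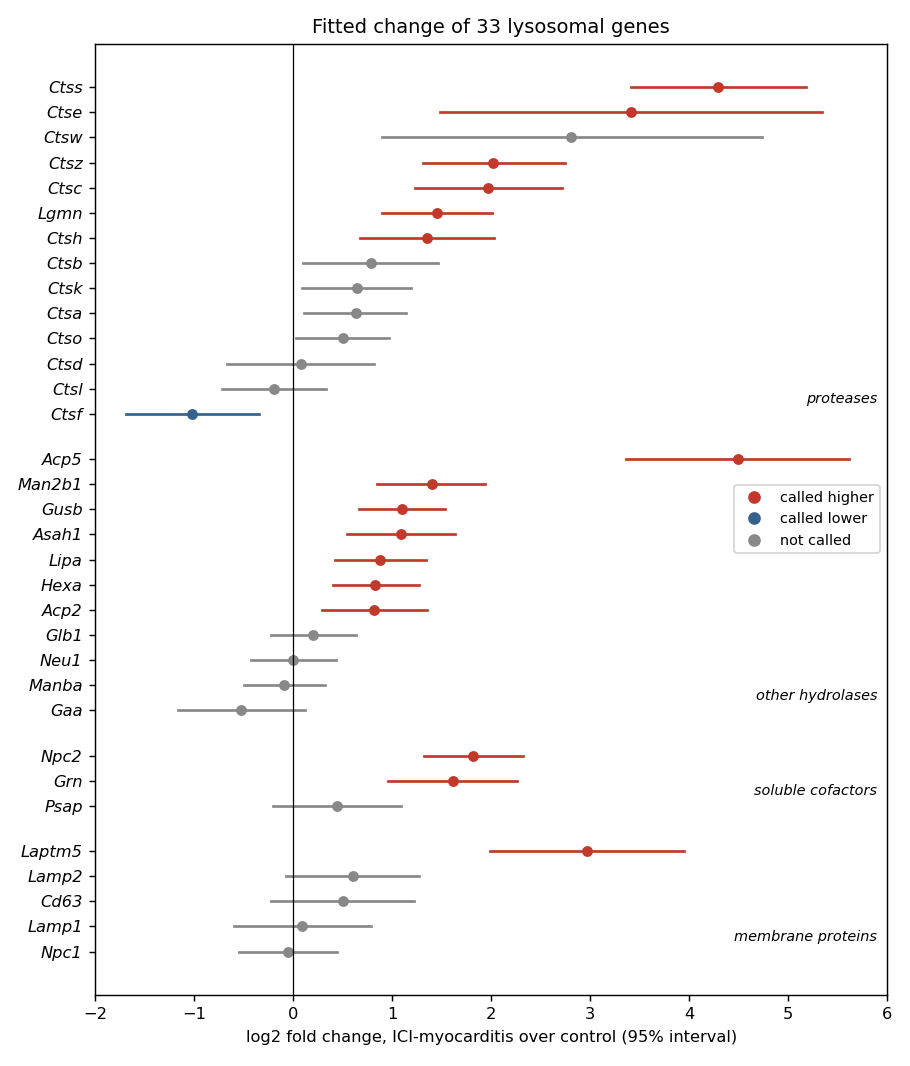
Fitted log2 fold change of the 33 genes, ICI-myocarditis (n = 3) over control (n = 4), by role. Points are limma estimates and bars their 95% intervals, and colour marks the call at an adjusted p under 0.05. Acp5 (4.49) and Ctss (4.29) lie farthest to the right, and Ctsf (-1.02) is the only gene called lower.

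Among the proteases, Ctss showed the largest change. Ctss encodes cathepsin S, a cysteine protease of antigen-presenting cells that trims the invariant chain from MHC class II and keeps activity near neutral pH. Controls 1 to 4 had 592, 1917, 839 and 728 normalized counts of Ctss, and ICI-myocarditis 1 to 3 had 15375, 14909 and 24956. Every ICI-myocarditis library was thus far above every control, and control 2 was the highest control. The mean was 18.1 times higher (1019 ± 607, SD, n = 4, against 18410 ± 5671, SD, n = 3), with a log2 fold change of 4.29 (adjusted p = 0.00251 by limma, SE 0.392). Ctss held 0.731% of the summed counts of the 33 genes in controls and 7.39% in ICI-myocarditis.

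Ctss and Ctsk are neighbours on chromosome 3 (GRCm38), on the same strand, with 17423 bases between the end of Ctsk and the start of Ctss. Ctsk encodes cathepsin K, the collagen-degrading protease of osteoclasts. Its normalized counts were 215, 204, 256 and 318 in controls and 481, 310 and 371 in ICI-myocarditis. The groups overlapped, since control 4 exceeded ICI-myocarditis 2. The log2 fold change was 0.64 (95% interval 0.09 to 1.19, limma adjusted p = 0.115). Per kilobase of transcript, Ctss exceeded Ctsk 3.08-, 10.5-, 3.66- and 2.56-fold in controls 1 to 4 and 35.7-, 53.6- and 75.1-fold in the ICI-myocarditis libraries. The ratio was thus higher in every ICI-myocarditis library than in any control, and control 2 was again the control nearest to them.

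The stretches from 250 to 11 bases before the 2 start sites are shown (RefSeq, GRCm38.p6, plus strand, Ctss at chr3:95526536-95526775 and Ctsk at chr3:95498960-95499199). Ctss was called higher and its neighbour Ctsk was not, and the difference between the 2 genes was not tested. Capitals mark a match to a pair of GAAA blocks with any 2 bases between them, a core of elements bound by interferon regulatory factors.
Ctss: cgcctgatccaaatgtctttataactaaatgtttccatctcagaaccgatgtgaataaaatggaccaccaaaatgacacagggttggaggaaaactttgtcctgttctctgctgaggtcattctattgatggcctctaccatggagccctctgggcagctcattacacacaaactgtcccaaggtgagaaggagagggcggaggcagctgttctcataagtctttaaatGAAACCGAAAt
Ctsk: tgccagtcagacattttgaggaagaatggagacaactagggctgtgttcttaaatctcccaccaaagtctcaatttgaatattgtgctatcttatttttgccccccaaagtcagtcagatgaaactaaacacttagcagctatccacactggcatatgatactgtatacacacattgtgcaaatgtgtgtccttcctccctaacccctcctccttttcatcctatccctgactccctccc
The match in Ctss begins 21 bases before the start site, and these letters were not found in the Ctsk window. The GAAA pair was searched on both strands of the 300-base windows from 250 bases before to 50 after each listed start. A gene with several listed starts counted if any of its windows matched. It was found for 3 of the 27 members in the promoter table (Ctso, Ctss and Lamp1, 11.1%), beside 3.99% of 27025 genes. Of these 3, Ctss was called higher, while Ctso (log2 fold change 0.50) and Lamp1 (0.09) did not pass the test. TTCNNNGAA, the palindrome bound by STAT factors, was found for 1 member, Ctsc (3.70%), beside 9.55%. A match describes letters and not binding.

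Other proteases with known roles in immune cells rose as well. Ctsz, a carboxypeptidase, had normalized counts of 1039, 1168, 846 and 699 in controls and 2411, 3568 and 6124 in ICI-myocarditis. The groups did not overlap, and the log2 fold change was 2.02 (adjusted p = 0.00492 by limma, SE 0.319). Ctsc encodes dipeptidyl peptidase I, which activates the serine proteases of cytotoxic and myeloid granules. Its counts were 1012, 2235, 1978 and 1854 in controls and 5265, 5611 and 9919 in ICI-myocarditis. The log2 fold change of Ctsc was 1.97 (adjusted p = 0.00597 by limma, SE 0.329), with control 1 the lowest and ICI-myocarditis 3 the highest library.

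Lgmn encodes legumain, an asparaginyl endopeptidase that processes other cathepsins. Normalized counts of Lgmn were 2289, 2867, 3244 and 3737 in controls and 7708, 6860 and 10370 in ICI-myocarditis. The groups lay apart with a log2 fold change of 1.45 (adjusted p = 0.00608 by limma, SE 0.245). Ctsh, an aminopeptidase, had 898, 1595, 1975 and 1867 in controls and 4708, 2942 and 4193 in ICI-myocarditis. Its log2 fold change was 1.35 (adjusted p = 0.0172 by limma, SE 0.303), and the call was lost without ICI-myocarditis 1 (limma adjusted p = 0.0602) or ICI-myocarditis 3 (0.0699).

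A pair of proteases was low and variable in controls. Ctse, an aspartic protease of endosomes, had 2.02, 23.4, 10.05 and 1.25 normalized counts in controls, where the lowest values correspond to 1 or 2 reads, and 57.3, 39.1 and 144 in ICI-myocarditis. Every ICI-myocarditis library was above control 2, the highest control. The log2 fold change of Ctse was 3.41 (adjusted p = 0.0272 by limma, SE 0.857). Without control 2 it was 4.05 (adjusted p = 0.00369 by limma). The adjusted p was 0.0649, 0.130, 0.0768 and 0.0542 when ICI-myocarditis 1, ICI-myocarditis 3, control 1 or control 3 was left out. Ctsw, a protease of natural killer cells and CD8+ T cells, had 51.4, 322, 59.2 and 12.5 in controls and 504, 353 and 436 in ICI-myocarditis. The groups did not overlap, but control 2 came close to ICI-myocarditis 2, and the log2 fold change of 2.81 did not pass the test (adjusted p = 0.0536 by limma, SE 0.850). Without control 2 it was 3.61 and passed (limma adjusted p = 0.00133). The change of Ctsw was smaller and did not pass with edgeR (1.91, adjusted p = 0.159) or DESeq2 (1.95, adjusted p = 0.173) on recovered reads. The authors' deposited table had 1.95 (adjusted p = 0.174). Ctsw passed under 5 of 19 alternatives.

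Ctsf was the only member that fell. It encodes cathepsin F, a widely expressed cysteine protease. Normalized counts of Ctsf were 1487, 1016, 1405 and 2103 in controls and 915, 821 and 491 in ICI-myocarditis. Control 2 was the lowest control and stood little above ICI-myocarditis 1. The log2 fold change was -1.02 (adjusted p = 0.0470 by limma, SE 0.296). The call was kept under 10 of 19 alternatives and was lost when any library other than control 2 was left out, with adjusted p values up to 0.190 without ICI-myocarditis 3.

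The proteases that were most abundant per kilobase in controls, Ctsd, Ctsb and Ctsl, did not pass the test. Ctsb encodes cathepsin B, a cysteine protease of nearly all cells. Its normalized counts were 13674, 10445, 14493 and 20773 in controls and 21677, 22459 and 31050 in ICI-myocarditis. The groups did not overlap, but the gap between control 4 and ICI-myocarditis 1 was small beside the spread of controls, and the log2 fold change of 0.78 had an interval of 0.10 to 1.46 (limma adjusted p = 0.117). It passed the threshold under 3 of 19 alternatives, including scaling of libraries by their totals alone (0.94, limma adjusted p = 0.0301), which moved the median of all genes from -0.02 to 0.14.

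Ctsd, the aspartic protease cathepsin D, had 24334, 14438, 24738 and 35564 normalized counts in controls and 25552, 22934 and 26146 in ICI-myocarditis. All 3 ICI-myocarditis values lay inside the range of the controls. The log2 fold change was 0.08 (95% interval -0.67 to 0.82, limma adjusted p = 0.910), and without control 2, the lowest library, it was -0.16. The interval leaves room for changes of either sign. Ctsl, another cysteine protease of most tissues, had a log2 fold change of -0.20 (95% interval -0.72 to 0.33, limma adjusted p = 0.627), with overlapping groups.

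Ctsa and Ctso stood between these sets. Ctsa encodes protective protein, a carboxypeptidase that stabilises the enzymes of Glb1 and Neu1 in a complex. Normalized counts of Ctsa were 3148, 2794, 3597 and 4524 in controls and 4947, 4823 and 6363 in ICI-myocarditis. The groups did not overlap, and the log2 fold change of 0.63 (95% interval 0.11 to 1.14) had a limma adjusted p of 0.101, which was 0.0318 with scaling by library totals. Ctso, a little studied cysteine protease, had 664, 989, 1005 and 803 in controls and 1341, 1256 and 1042 in ICI-myocarditis. Its lowest ICI-myocarditis library was just above the highest control, and the log2 fold change was 0.50 (95% interval 0.03 to 0.97, limma adjusted p = 0.144).

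**Figure D2:**
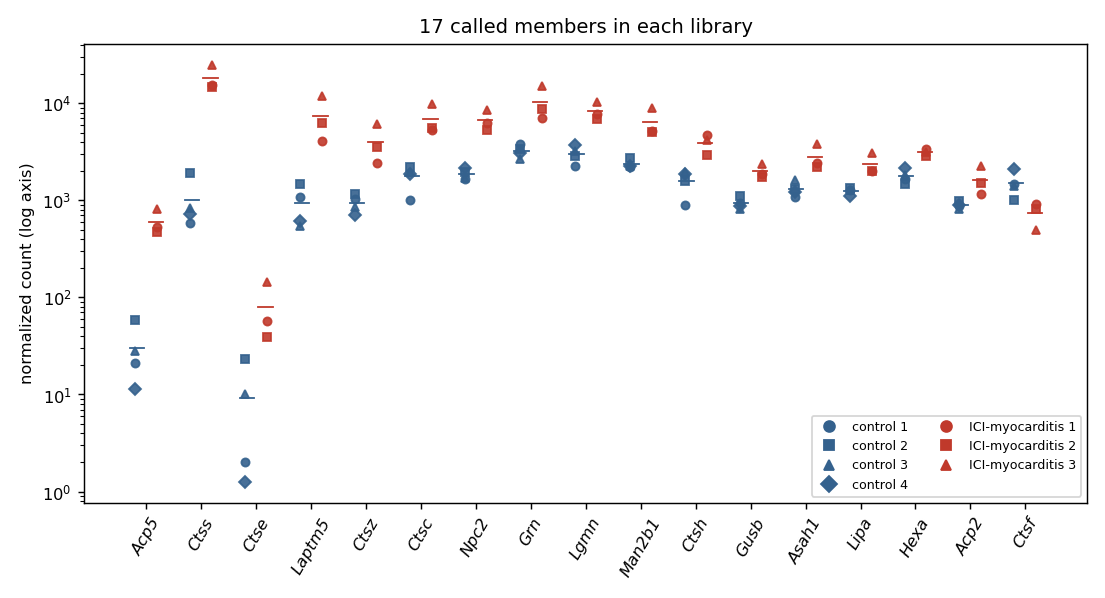
Normalized counts of the 17 called genes in each library on a log axis, with controls in blue, ICI-myocarditis in red and a bar at each group mean. Acp5 and Ctss have wide gaps between groups, while Ctse spreads widely within each group, and ICI-myocarditis 3 (red triangle) tops 14 of the 16 genes that rose.

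Of the other hydrolases, Acp5 had the largest fitted change of all 33 genes. It encodes tartrate-resistant acid phosphatase, a marker enzyme of osteoclasts that activated macrophages also make. Normalized counts of Acp5 were 21.2, 59.2, 27.9 and 11.3 in controls and 527, 475 and 813 in ICI-myocarditis. All controls lay far below the lowest ICI-myocarditis library. The mean rose 20.2-fold, from 29.9 ± 20.7 (SD, n = 4) to 604.9 ± 182 (SD, n = 3), with a log2 fold change of 4.49 (adjusted p = 0.00251 by limma, SE 0.499). Of 7 osteoclast markers, Calcr, Ocstamp and Dcstamp were too low to test, Itgb3 (log2 fold change 1.63, limma adjusted p = 0.0210) and Nfatc1 (1.14, limma adjusted p = 0.0234) rose, and Mmp9 and Oscar had values of -1.44 and -1.14 that did not pass the test. The calls of Itgb3 and Nfatc1 were both lost without ICI-myocarditis 2, ICI-myocarditis 3 or control 3, with adjusted p values up to 0.103. The markers summed to 1124.8 to 1913.3 normalized counts in controls and 2389.1 to 4370.6 in ICI-myocarditis. Nfatc1 was the largest part of that sum, with means of 1248 in controls and 2731 in ICI-myocarditis. Groups were also apart for Oscar, with lower values, and for the untested Ocstamp, with higher values. The part of these markers in the Acp5 result was not tested.

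Enzymes of glycan breakdown were split. Man2b1, the lysosomal alpha-mannosidase, had 2192, 2725, 2244 and 2280 normalized counts in controls and 5235, 5066 and 8959 in ICI-myocarditis. The controls lay close together and the groups did not overlap (log2 change 1.40, adjusted p = 0.00693 by limma, SE 0.243). Gusb, beta-glucuronidase, had 945, 1113, 816 and 870 in controls and 1880, 1754 and 2389 in ICI-myocarditis. It rose by a log2 fold change of 1.10 (adjusted p = 0.00716 by limma, SE 0.194). Hexa, the alpha subunit of hexosaminidase, had 1652, 1468, 1831 and 2151 in controls and 3393, 2838 and 3191 in ICI-myocarditis. Its groups did not overlap either, and its log2 fold change was 0.83 (adjusted p = 0.0198 by limma, SE 0.193). The Hexa call was lost without any 1 ICI-myocarditis library, control 1 or control 3, with limma adjusted p values of 0.0531 to 0.0762, and with control 2 and ICI-myocarditis 3 left out together (0.0685). It was also lost with replicate number as a block (limma adjusted p = 0.0603), and Hexa passed under 12 of 19 alternatives.

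The other 4 glycan hydrolases did not pass the test, and the groups overlapped for each of them. Glb1 (beta-galactosidase) had a log2 fold change of 0.20 (95% interval -0.23 to 0.63) and Neu1 (sialidase 1) one of -0.00 (-0.43 to 0.43), beside the 0.63 of their partner Ctsa. Manba, beta-mannosidase, had -0.09 (-0.50 to 0.32). Gaa, the acid alpha-glucosidase that degrades glycogen and whose loss causes Pompe disease of heart and muscle, had a mean of 4506 ± 1468 (SD, n = 4) in controls and 2995 ± 274 (SD, n = 3) in ICI-myocarditis. Its log2 fold change was -0.53 (95% interval -1.17 to 0.12, limma adjusted p = 0.254), and without control 2, the lowest library, it was -0.76 with a limma adjusted p of 0.0409.

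Both lipid hydrolases rose. Asah1, acid ceramidase, had 1082, 1303, 1609 and 1209 normalized counts in controls and 2414, 2201 and 3842 in ICI-myocarditis. Its log2 fold change was 1.09 (adjusted p = 0.0167 by limma, SE 0.241), and the call was lost without ICI-myocarditis 3 (0.0647) or control 1 (0.0516). Lipa, the lipase that frees cholesterol and fatty acids from lipoprotein lipids, had 1293, 1358, 1282 and 1117 in controls and 2021, 2008 and 3074 in ICI-myocarditis. The controls were tightly grouped below all ICI-myocarditis libraries, with a log2 fold change of 0.88 (adjusted p = 0.0200 by limma, SE 0.205). The Lipa call was lost without ICI-myocarditis 3 (0.0832) or control 3 (0.0593), and with control 2 and ICI-myocarditis 3 left out together (0.0570). It was also lost with replicate number as a block (limma adjusted p = 0.104), and Lipa passed under 15 of 19 alternatives. Acp2, lysosomal acid phosphatase, had 869, 981, 824 and 905 in controls and 1156, 1517 and 2242 in ICI-myocarditis. Its groups did not overlap, and its log2 fold change of 0.82 (adjusted p = 0.0439 by limma, SE 0.234) did not pass without ICI-myocarditis 2, ICI-myocarditis 3, control 1, control 3 or control 4, with 0.17 the highest adjusted p, without ICI-myocarditis 3. With control 2 and ICI-myocarditis 3 both left out, the limma adjusted p of Acp2 was 0.115. Acp2 passed under 10 of 19 alternatives.

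Of the soluble cofactors, Npc2 and Grn rose and Psap did not pass the test. Npc2, the lumenal carrier that hands cholesterol to Npc1, had 1682, 1960, 1697 and 2156 normalized counts in controls and 6343, 5263 and 8596 in ICI-myocarditis. The groups lay well apart, with a log2 fold change of 1.82 (adjusted p = 0.00286 by limma, SE 0.222). Grn encodes progranulin, whose cleaved units support lysosomal enzymes. Its counts were 3775, 3357, 2644 and 3068 in controls and 7025, 8670 and 15111 in ICI-myocarditis. Grn rose by a log2 fold change of 1.61 (adjusted p = 0.00750 by limma, SE 0.287), with ICI-myocarditis 3 highest. Psap encodes prosaposin, the precursor of the saposins that present sphingolipids to hydrolases. Its counts were 48887, 39896, 46051 and 58199 in controls and 60767, 60294 and 74447 in ICI-myocarditis. The groups were apart by a narrow margin, and the log2 fold change of 0.44 did not pass the test (95% interval -0.21 to 1.09, limma adjusted p = 0.348).

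Of the membrane proteins, Laptm5, a protein of leukocyte lysosomes, was the 1 gene that rose. Normalized counts of Laptm5 were 1083, 1482, 548 and 607 in controls and 4058, 6207 and 11879 in ICI-myocarditis. The lowest ICI-myocarditis library was above the highest control, control 2, and the log2 fold change was 2.97 (adjusted p = 0.00411 by limma, SE 0.435). Lamp1, a main glycoprotein of the lysosomal membrane in most cells, had 11016, 6802, 11978 and 16072 in controls and 11515, 10998 and 12509 in ICI-myocarditis. All 3 ICI-myocarditis values of Lamp1 lay within the range of the controls (log2 fold change 0.09, 95% interval -0.60 to 0.78, limma adjusted p = 0.880), and without control 2 the value was -0.14. Lamp2 had a log2 fold change of 0.60 (-0.07 to 1.27) and the tetraspanin Cd63 one of 0.50 (-0.23 to 1.22), with overlapping groups and no call. Npc1, the cholesterol transporter that works with Npc2, had -0.05 (-0.55 to 0.44), and the groups overlapped. The difference between the changes of Npc2 and Npc1 was not tested.

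Levels were compared between genes per kilobase of transcript. The length was that of the longest protein-coding transcript linked to RefSeq, which may not be the form expressed here, so ranks depend on that choice. In controls, Psap (18160 normalized counts per kilobase), Ctsd (11640) and Lamp1 (5144) ranked highest of the 33 and Ctse (4.32) lowest. In ICI-myocarditis, Psap (24530) remained first, and Ctss moved from rank 15 (751.9) to rank 2 (13590), above Ctsd (11700). Laptm5 moved from rank 23 (357.6) to rank 9 (2839), whereas Ctsl moved from rank 5 (2929) to rank 12 (2578). The 3 genes that were highest in controls were thus none of those that rose.

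**Figure D3:**
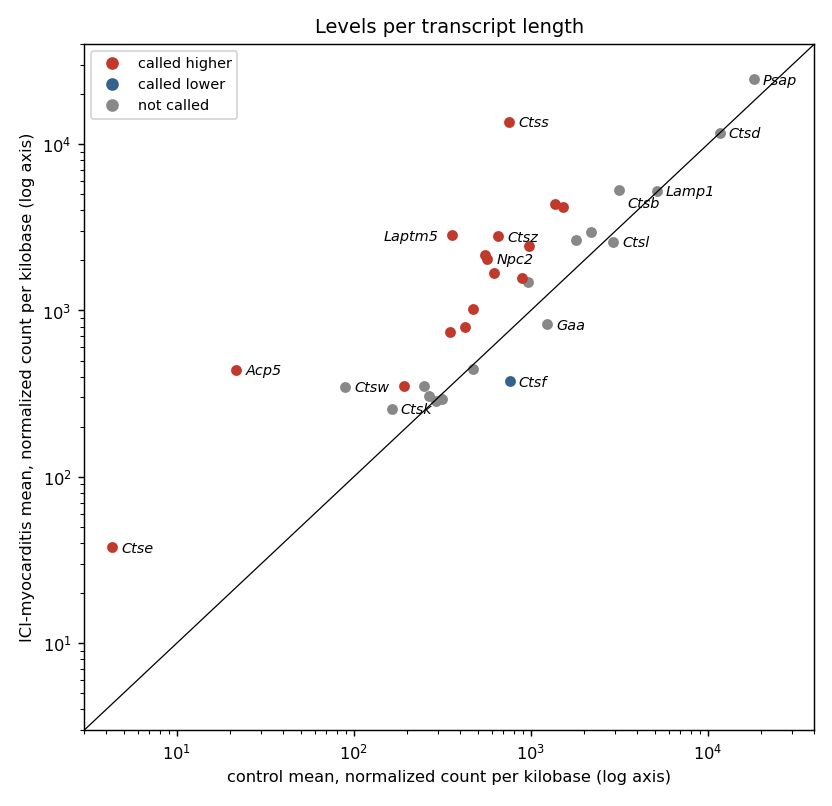
Mean normalized count per kilobase of transcript of the 33 genes in controls (x axis) and ICI-myocarditis (y axis), both on log axes, with the line of equal levels. Ctss stands far above the line, at 751.9 and 13590, while Ctsd, Lamp1 and Ctsl lie close to it.

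In controls 1 to 4, the 33 genes made up 0.443, 0.468, 0.510 and 0.515% of all gene counts, and in ICI-myocarditis 1 to 3 they made up 0.794, 0.768 and 1.09%. Every ICI-myocarditis library was above every control, and control 2 did not stand apart in this share. The summed normalized counts of the 33 genes were, however, lowest in control 2 (120760). The mean share was 0.484 ± 0.0345% (SD, n = 4) and 0.884 ± 0.179% (SD, n = 3). Within the sum, Psap held 31.8% in controls and 26.7% in ICI-myocarditis, Ctsd 15.9% and 10.2%, and Lamp1 7.36% and 4.80%. Ctsb held about the same part, 9.60% and 10.2%.

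**Figure D4:**
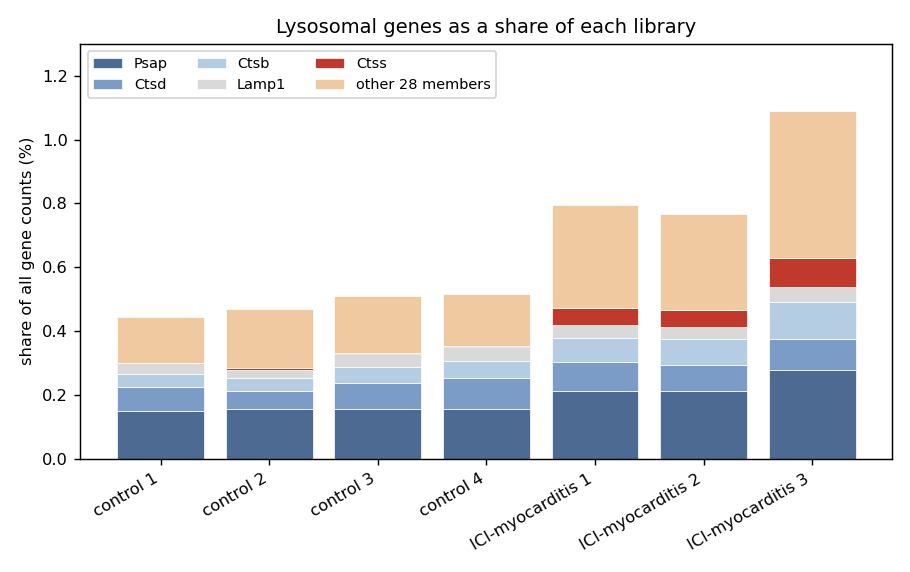
Share of all gene counts held by the 33 genes in each library, stacked with 5 genes shown by name and the other 28 together. The total lies between 0.443 and 0.515% in controls and between 0.768 and 1.09% in ICI-myocarditis, and the part of Ctss is visible mainly in ICI-myocarditis.

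Most macrophage and T cell markers rose in ICI-myocarditis, while markers of dendritic cells and neutrophils were mixed. Of 11 macrophage and monocyte markers, 9 rose and none fell, and their sum ranged from 13467 to 19251 normalized counts in controls and from 54354 to 85055 in ICI-myocarditis. Of 11 markers of T cells and cytotoxic lymphocytes, 10 rose, with sums of 131.37 to 1947.8 and 9244.3 to 14712, and control 2 had the 1947.8. Of 7 dendritic cell markers, 3 rose (688.13 to 2279.6 against 1741.4 to 2420.6), and of 3 tested neutrophil markers 1 rose (16.132 to 96.339 against 45.656 to 63.419). Of 7 fibroblast markers 3 rose, Postn, Col1a1 and Col1a2 (35893 to 54066 against 77110 to 149690), with the collagen calls lost without ICI-myocarditis 2, ICI-myocarditis 3 or control 3, and of 6 endothelial markers 3 fell (26737 to 66539 against 17304 to 24984). None of the 8 cardiomyocyte markers passed the test, with all 8 fold changes below 0. Of 4 tested genes on the skeletal muscle list, Tnnt3 rose and Ckm fell, while Myh4 and Myh2 were too low to test. Ckm and Acta1 had control means of 34180 and 9986 normalized counts, so they did not single out skeletal muscle here. Neither of 2 tested red cell markers passed the test, and 1 of 2 tested thymus and lymph node markers rose, with Foxn1 and Ccl21a at 0 in all libraries. All 5 fat markers were too low to test, and their sum was highest in control 3 (166.38). Several other marker calls did not hold throughout, among them Ccr2, which passed under 8 of 19 alternatives, Flt3 (14), Kdr (13) and Ckm (12). Tnnt3 passed under 9 of 18. No macrophage, T cell, fibroblast, endothelial or cardiomyocyte marker that was used was at 0 in all libraries. The part of these cells in the lysosomal gene results was not tested.

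To set the genes beside the macrophage signal, each was divided by the sum of the 11 macrophage and monocyte markers in the same library. That sum rose by 1.95 on the log2 scale. Lyz2 and Csf1r had the highest control means in it (6996 and 2956) and fold changes of 1.40 and 1.33, while the median of the 11 markers was 2.59. The size of each ratio therefore depends on how the markers are weighted. Relative to the sum, Ctss was higher in every ICI-myocarditis library than in any control (by 2.34 on the log2 scale), and so was Acp5 (by 2.54), beside 1.78% of all genes tested. The log2 ratio of Ctss was -4.51, -3.33, -4.33 and -4.57 in controls and -1.90, -1.87 and -1.77 in ICI-myocarditis, where it hardly varied. Between the groups, 8 genes overlapped: Ctsc (0.01), Ctse, Ctsh, Ctsw, Ctsz, Grn, Npc2 (-0.13) and Laptm5. The other 23 were lower relative to the markers, among them Lgmn (-0.50), Ctsb (-1.17), Psap (-1.51), Ctsd (-1.88), Gaa (-2.48) and Ctsf (-2.97). Since 84.1% of all genes tested were lower on this measure, those 23 are no result about lysosomal genes. These ratios are descriptions and carry no test.

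**Figure D5:**
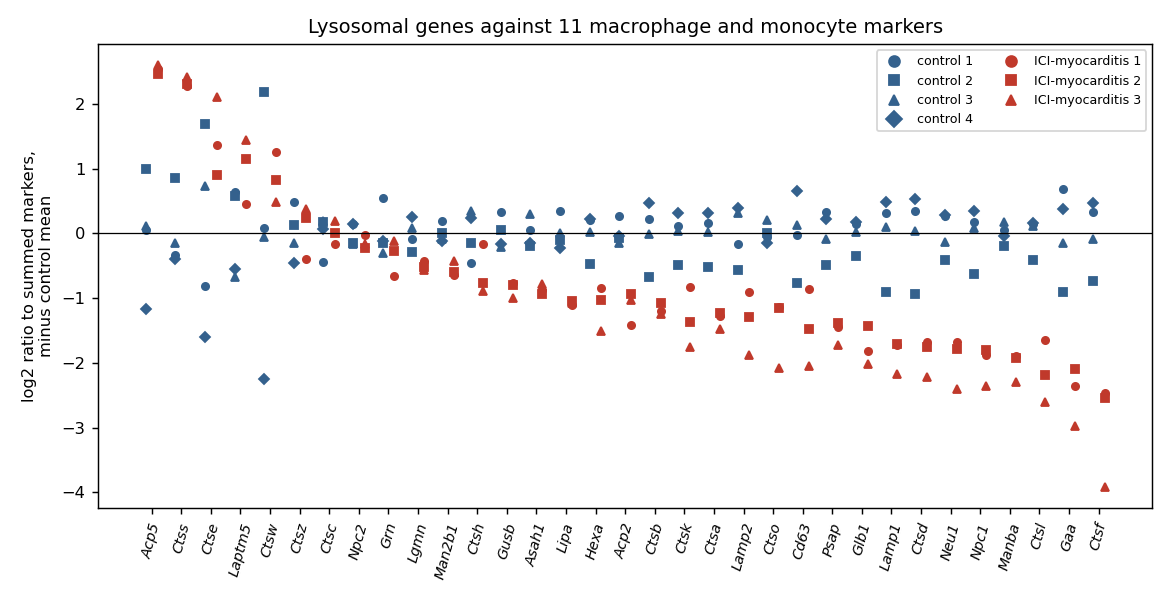
Log2 ratio of each of the 33 genes to the summed 11 macrophage and monocyte markers in each library, with the control mean of each gene set to 0. Acp5 and Ctss lie above all controls in all 3 ICI-myocarditis libraries, Ctsc and Npc2 lie near 0, and the genes at the right, ending with Ctsf, lie below all controls.

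The promoters were searched for CACGTG, the core of the element that the lysosomal regulator TFEB and its relatives bind. Of the 27 members found in the RefSeq table (GRCm38.p6), 8 held it on either strand of any 300-base window (29.6%), beside 8.09% of 27025 genes. They were Ctsa, Ctsd, Ctsf, Ctsl, Gaa, Glb1, Lamp1 and Lgmn. Of these 8, Lgmn rose, Ctsf fell and 6 did not pass the test, with a median log2 fold change of 0.08. Of the 19 matched members without it, 12 rose and none fell, with a median of 0.88. Over all tested genes in the table, 9.58% of the 1242 with CACGTG were called higher and 11.7% of the 9829 without it, with medians of -0.01 and -0.03. The difference between the member sets was seen after the values were known and was not tested.

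Windows with CACGTG in capitals are shown for these 8 genes, each 5′ to 3′ on the strand of the gene. Lamp1 holds 4 copies in 70 bases (chr8:13159091-13159160, plus strand). Ctsa holds 2 copies of the longer palindrome TCACGTGA, which was present for 2 members (7.40%) beside 1.12% of all genes. The Ctsa window (chr2:164833758-164833787, plus strand) spans a RefSeq start site, and all 30 of its bases lie in annotated exons. The windows shown for Ctsa, Ctsd, Ctsl and Lgmn lie inside the gene bounds given by GENCODE, so the RefSeq starts used there are internal ones.
Lamp1: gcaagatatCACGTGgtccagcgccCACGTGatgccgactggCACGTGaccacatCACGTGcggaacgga
Ctsa: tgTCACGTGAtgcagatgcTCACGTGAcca
Ctsd (chr7:142387908-142387937, minus strand): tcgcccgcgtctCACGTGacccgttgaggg
Glb1 (chr9:114401018-114401047, plus strand): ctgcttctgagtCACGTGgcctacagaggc
Gaa (chr11:119267811-119267840, plus strand): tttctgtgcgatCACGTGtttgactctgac
Ctsl (chr13:64370739-64370768, minus strand): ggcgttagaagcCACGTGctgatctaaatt
Ctsf (chr19:4855074-4855103, plus strand): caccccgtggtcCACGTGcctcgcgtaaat
Lgmn (chr12:102439124-102439153, minus strand): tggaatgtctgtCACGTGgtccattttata
The 6 genes shown first are those whose change did not pass the test. Ctsd also holds TCACGTGA, and TCACGTGA with G before it and C after it was found for no member, beside 0.370% of all genes.

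The rest of the pathway was read from 92 further lysosomal genes, of which 86 were tested. Of these, 26 rose (30.2%), 2 fell (Hyal1 and Laptm4b) and 58 did not pass the test, with a median log2 fold change of 0.24, beside 11.7% of all genes higher and 4.0% lower. Both falls were lost without any 1 ICI-myocarditis library, control 1 or control 3, and with control 2 and ICI-myocarditis 3 both left out, and that of Laptm4b also without control 4. The count of 26 was 12 without ICI-myocarditis 3, 14 without control 3 and 17 without ICI-myocarditis 2. In those settings 829 of 15046, 1121 of 15145 and 1064 of 15053 genes tested were called higher. Differences between the lists that follow were not tested.

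Of 30 other hydrolases, 15 rose and 1 fell (median 0.74). Naaa, which hydrolyses N-acylethanolamines, had 465, 675, 520 and 586 normalized counts in controls and 2626, 3457 and 5096 in ICI-myocarditis (log2 change 2.69, adjusted p = 0.00251 by limma, SE 0.250). Gm2a, the cofactor that presents GM2 ganglioside to hexosaminidase, rose by 1.97 (adjusted p = 0.00374 by limma, SE 0.269), and Scpep1, a serine carboxypeptidase, by 1.57 (adjusted p = 0.00394 by limma, SE 0.225). The genes with the lowest p-values in this list thus covered lipid, glycolipid and peptide breakdown.

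Of 16 tested vacuolar ATPase genes, 2 rose and none fell (median 0.20). They were Atp6ap2, an accessory subunit (1.10, adjusted p = 0.00795 by limma, SE 0.201), and Atp6v0d2, an isoform known from osteoclasts and macrophages (2.39, adjusted p = 0.0203 by limma, SE 0.556). Atp6v1a, the catalytic subunit, had 0.49 and did not pass (limma adjusted p = 0.127). The count of 2 in 16 is close to the 11.7% of all genes called higher. The Atp6v0d2 call was lost without ICI-myocarditis 2 (0.083), ICI-myocarditis 3 (0.107) or control 3 (0.0548), and with control 2 and ICI-myocarditis 3 left out together (0.0535).

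Of 18 tested membrane proteins outside the 33 genes, 4 rose and 1 fell (median 0.21), beside 11.7% of all genes higher and 4.0% lower. Slc11a1, the phagosomal metal transporter, rose by 3.20 (adjusted p = 0.00316 by limma, SE 0.410), Cd68, a macrophage lysosomal glycoprotein, by 2.36 (adjusted p = 0.00474 by limma, SE 0.368), and Gpnmb by 3.19 (adjusted p = 0.0136 by limma, SE 0.673). Gpnmb varied most, with 160 and 188 normalized counts in ICI-myocarditis 1 and 2 and 995 in ICI-myocarditis 3, and without ICI-myocarditis 3 its value was 2.35. All 3 are known from macrophages, and the part of such cells in these rises was not tested.

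Of 10 genes of mannose 6-phosphate sorting, 2 rose and none fell (median 0.09), beside 11.7% of all genes called higher. M6pr, the cation-dependent receptor, rose by 1.03 (adjusted p = 0.00872 by limma, SE 0.194) and Gnptab, a subunit of the phosphotransferase that makes the tag, by 0.88 (adjusted p = 0.0226 by limma, SE 0.211). The Gnptab call was lost without ICI-myocarditis 2 (0.0749), ICI-myocarditis 3 (0.101), control 1 (0.0595) or control 3 (0.0694), and with control 2 and ICI-myocarditis 3 both left out (0.0944). Sort1, an alternative sorting receptor, had -0.76 with groups apart but did not pass (limma adjusted p = 0.0661).

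Of 4 tested cystatins and stefins, the inhibitors of cathepsins, 2 rose (median 0.79), beside 11.7% of all genes called higher. Cst7, cystatin F, which is made by immune cells and acts inside their granules and lysosomes, had 17.1, 50.6, 16.7 and 2.50 normalized counts in controls and 188, 200.02 and 264 in ICI-myocarditis (log2 change 3.80, adjusted p = 0.0109 by limma, SE 0.759). Cstb, stefin B, rose by 1.33 (adjusted p = 0.0189 by limma, SE 0.305). Without control 4 the value of Cst7 was 3.08, and the Cstb call was lost without ICI-myocarditis 1 (0.0629) or ICI-myocarditis 3 (0.0841). Cst3, cystatin C, a secreted inhibitor, had overlapping groups at 0.22 (limma adjusted p = 0.642).

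Among 8 regulators of lysosomal genes, Tfec alone rose (2.22, adjusted p = 0.0103 by limma, SE 0.438), from 10.1, 17.3, 15.6 and 15.0 normalized counts in controls to 46.0, 58.7 and 127 in ICI-myocarditis. Tfec is a relative of TFEB that is expressed in macrophages, and its call was lost without ICI-myocarditis 3 (0.0574). As 1 gene in 8, it is close to the 11.7% of all genes called higher. Flcn (-0.51, limma adjusted p = 0.145) and Tfe3 (0.54, limma adjusted p = 0.197) did not pass, and Tfeb itself had 0.08.

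Some rows share exons with genes on the opposite strand, and whether counting used strand is not given in the sources used here. Among the genes that rose, this concerns Ctsz (Nelfcd), Hexa (Tmem202), Acp2 (Ddb2), Acp5 (6530413G14Rik) and Grn (Fam171a2). Among the others, it concerns Ctsa (Neurl2 and Pltp), Ctsb (Fdft1), Ctsw (Fibp), Ctsl (Gm47123), Lamp1 (Grtp1) and Npc1 (Gm15956 and Rmc1). Reads of such pairs cannot be told apart without strand. Ctsd (Gm49369), Ctsl (Gm49230) and Glb1 (Tmppe) share exons with a gene on their own strand, which strand would not separate, so their counts are uncertain as well.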

How the data were processed

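One table of 23420 gene rows with 7 libraries was used. Its columns hold the authors' normalized signal, in which the gene counts of a library share 1 divisor (a size factor), as the values show. Alignment with STAR 2.7.3 to GRCm38 (mm10) is listed per the submitters' processing notes, and the counting program, annotation and strand setting are not given in the sources used here. Per the file headers, the deposited table also lists, from the authors' own comparison, log2 fold changes, their errors, a test score and p-values before and after adjustment. In units of the smallest step of its column, 100% of values were whole reads (within 0.01), although the step of 1.01 in control 1 makes this weaker there. Rows with names turned into dates (27) and 2 repeated names held 0.143% of reads and were not members.

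limma 3.58.1 (R 4.3.3) was run on log2(normalized count + 1) with trended, robust variance, on genes that reached 10 normalized counts in 3 or more libraries. Benjamini-Hochberg adjustment ran over all these genes, and the threshold was 0.05. The pseudocount shrinks changes of low genes, yet for Ctsw and Ctse this scale gave larger changes than edgeR or DESeq2. Alternatives were other pseudocounts (0.5 and 5), other filters, scaling by library size, limma without trend or robust variance, edgeR 4.0.16, DESeq2 1.42.0 and limma-voom on the recovered reads, leaving out each library, and a replicate block. Leaving out control 2 and ICI-myocarditis 3 together was added after seeing the data. The tests were also tried on simulated counts. That setting had equal spread in every gene, balanced rises and falls and no library standing apart, so it was simpler than these data. Counting error is small at this depth except for genes with few reads, and reads lack molecular identifiers, so they overstate the molecules sampled. Members and lists were chosen with earlier results of these data known. Values in every library are given for members that were called, had an unadjusted p under 0.05 or a mean above 10000 normalized counts, and of each other list the 3 genes with the lowest p are named. Tfeb, Hyal1, Laptm4b and single marker genes were named after their values were seen. Locations and transcript lengths come from GENCODE release M21 (GRCm38) and promoters from RefSeq (GRCm38.p6), where 27 of the 33 members matched by symbol. Ctsb, Ctse, Ctsh, Ctsw, Asah1 and Npc1 were not used there.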

Additional observations from a re-analysis of the deposited data

How the results depend on the processing

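Over the 19 alternatives, limma, edgeR or DESeq2 called 10 to 18 members higher, and the median log2 fold change of the members stayed between 0.66 and 0.98 (0.66 to 0.87 with 1 library left out). Leaving out 1 library gave 10 to 17 members higher (10 without ICI-myocarditis 3) and 0 to 2 lower (2 without control 2). Among the other lysosomal genes it gave 12 to 29 higher and 0 to 3 lower. The count of members lower was 0 with no filter on low values, with limma without trend or robust variance, and with the replicate block. With both control 2 and ICI-myocarditis 3 left out, 17 other lysosomal genes were called higher and 0 lower. The count of those lower was 1 with no filter, 1 with limma without trend or robust variance, 1 with edgeR on recovered reads and no filter, and 0 with scaling by library size. Of 626 member values, 564 kept direction and side of the threshold, 37 lost the call, 10 gained it and 15 changed sign. The sign changes were all in genes near 0. Ctsd was -0.07 with limma-voom, -0.16 without control 2 and -0.20 with both libraries left out, and Lamp1 was -0.07, -0.14 and -0.19 in the same settings. Without control 4 the values of Ctsd and Lamp1 were both 0.27. With scaling by library size Manba was 0.07, Neu1 0.16 and Npc1 0.11. Neu1 was 0.02 to 0.11 without ICI-myocarditis 2, ICI-myocarditis 3 or control 4, and Npc1 was 0.09 without control 4. The cause of these changes was not tested. All genes called ranged from 986 without ICI-myocarditis 3 to 4014 with limma-voom, and edgeR on recovered reads called 2075. With 1 library left out, genes called higher ranged from 829 of 15046 (without ICI-myocarditis 3) to 2252 of 15126 (without control 2).

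Replicate numbers did not pair the libraries: same-numbered libraries had correlations of deviations of -0.271, -0.206 and -0.078. With the replicate number as a block, 14 members were called higher and 0 lower, 17 other lysosomal genes higher and 0 lower, and 1780 of all genes were called against 2397 without it. Under the block Neu1 was 0.11 and Npc1 0.09.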

Other observations

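The table also held 11 cathepsin rows outside the 33 genes. Cts3, Cts6, Cts7, Cts8, Cts8-ps, Ctsj, Ctsll3, Ctsm, Ctsq and Ctsr, a cluster known from placenta, were listed at 0 in all 7 libraries. Ctsg, which encodes cathepsin G, a serine protease of neutrophil granules, was listed at 0 in 6 libraries and at 1.12 normalized counts in control 3, a single read. Of the neutrophil markers, S100a8 (log2 fold change -0.20, limma adjusted p = 0.901) and S100a9 (-0.62, limma adjusted p = 0.645) did not pass the test, Ltf rose (2.93, limma adjusted p = 0.0263) from at most 7.40 normalized counts in controls to 16.8 to 26.1 in ICI-myocarditis, and Camp and Elane were too low to test. The Ltf call was lost without control 1 (0.0719) or control 3 (0.0628).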
